A study of Mus musculus with 30 samples.

Results

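The fasting change of every gene was compared between white adipose tissue (WAT) of the epididymal fat pad and skeletal muscle (SM) of the thigh. For each of 18781 genes, the change in SM (fasted minus fed) was subtracted from the change in WAT, and the genes were then sorted by what each tissue did. The mice were male C57Bl/6 animals of 10 to 12 weeks (substrain J by the study's text). Fasted mice were left without food for 24 h, and fed mice had chow ad libitum. Livers of fed and fasted mice were also measured and entered the fit only through its estimate of the spread. Whether arrays of the same number in WAT and SM came from 1 mouse is not stated, and p-values measure the spread between these samples. The comparison rests on 19 arrays: 5 of fed WAT, 5 of fasted WAT, 5 of fed SM and 4 of fasted SM, of 30 in the whole series. All values are log2 values of single arrays, on which a difference of 1 is 2-fold, and a log2 value compares arrays for a gene but not genes with each other.

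Fat and muscle take opposite parts in the fast. WAT stores triglyceride when insulin is high and releases fatty acids and glycerol when insulin falls and catecholamines act on it. SM takes up these fatty acids, spares glucose, and breaks down its own protein, through the proteasome and through autophagy under FoxO transcription factors and glucocorticoids, which supplies amino acids to the liver.

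A difference was called at an adjusted p under 0.05 (limma, Benjamini-Hochberg over all probe sets) and a size of at least 1.3-fold, which is 0.38 on the log2 scale. Of 18781 genes, 2830 had a called difference (15.1% of genes). In 1384 the change was more positive in WAT than in SM (7.37% of genes) and in 1446 more negative (7.70%). Fasting raised 1501 genes (7.99% of all) and lowered 1455 (7.75%) in WAT, and raised 1464 (7.80%) and lowered 1086 (5.78%) in SM. A total of 898 genes changed in both tissues, 30.4% of those of WAT and 35.2% of those of SM. Of these, 450 rose in both, 343 fell in both and 105 moved in opposite directions. The called differences fell into the following classes. In 59 genes (0.314% of all) fasting raised the gene in WAT and lowered it in SM, and in 46 genes (0.245%) it did the reverse. A gene was assigned to 1 tissue when its change was called there, was under 1.3-fold and not called in the other, and the difference itself was called. By this rule 560 genes rose in WAT only (2.98%), 504 fell in WAT only (2.68%), 520 rose in SM only (2.77%) and 371 fell in SM only (1.98%). A further 166 genes (0.884%) changed the same way in both tissues but by unequal amounts. Of the remaining 604 called differences, 583 belonged to genes that were called in neither tissue on its own.

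**Figure D1:**
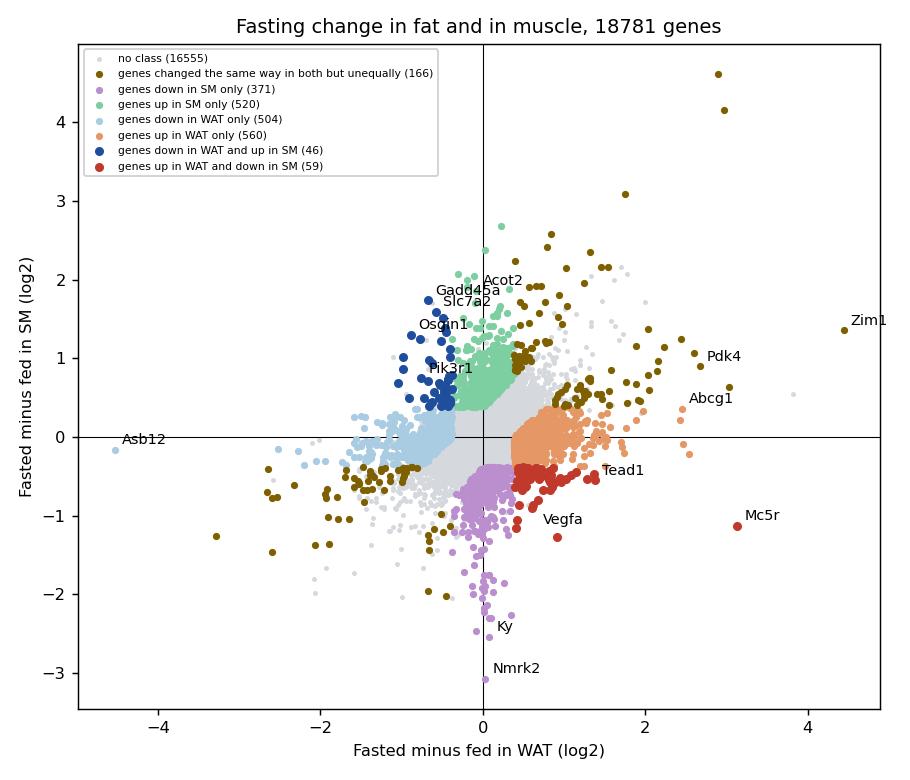
Change in WAT (x axis, fasted minus fed, log2) against change in SM (y axis, fasted minus fed, log2) for 18781 genes, coloured by class with the number of genes in each. Mc5r lies alone at the lower right (3.13 in WAT, −1.13 in SM), and the 46 genes at the upper left with Gadd45a fell in WAT and rose in SM.

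The tissues were checked against their markers before genes were compared. The mean of 12 muscle fibre markers was 12.5 to 12.6 on the SM arrays used and 4.51 to 5.03 in WAT. The mean of 9 adipocyte markers was 11.2 to 11.9 in WAT, but it was 7.90 to 9.81 in fed SM (median 9.15) and 7.95 to 8.79 in fasted SM (median 8.44), so the muscle samples held adipocyte transcripts in amounts that differed between mice. The mean of 7 slow muscle fibre markers ran from 5.39 to 10.2 in fed SM and from 8.34 to 9.86 in fasted SM. Of the 9 adipocyte markers, 3 fell in SM and 2 in WAT (5.78% and 7.75% of all genes). Slc2a4, among the 9, read higher in fed SM (11.11 to 11.24) than in fed WAT (9.73 to 10.06). The marker mean is thus neither a measure of adipocytes alone nor independent of fasting. The fifth fasted SM array was left out: its lymphocyte marker mean was 7.71, against at most 4.07 on the other SM arrays. Kept arrays also stood apart in some markers. Fasted SM 3 had an epididymis and testis marker mean of 4.89 (other SM arrays at most 3.89) and a mesothelial mean of 5.03 (at most 4.53). Fasted SM 1 had a Schwann cell and nerve mean of 8.09 over 2 genes (at most 7.46). Since the samples are whole tissue, fewer cells of a type and less RNA per cell cannot be told apart. With the adipocyte marker mean as a covariate in SM, 48 of the 59 and 44 of the 46 genes with opposite changes kept their class, and with the slow fibre marker mean 53 and 39 did. In 24 of the 59 and 19 of the 46 the call in 1 tissue was lost in at least 1 of 31 other fits (in 21 and 18 of them when 1 array was left out).

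**Figure D2:**
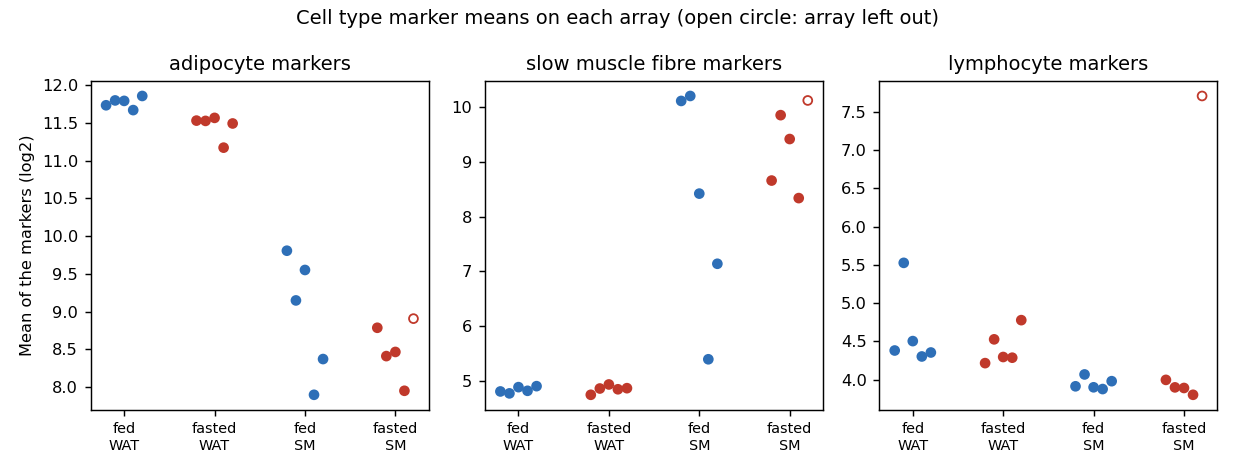
Mean log2 value of adipocyte, slow muscle fibre and lymphocyte markers (y axis) on each WAT and SM array (x axis, fed in blue, fasted in red). The open circle is the fasted SM array left out, whose lymphocyte marker mean is 7.71, and the fed SM arrays spread from 5.39 to 10.2 in the slow fibre markers.

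Fasting raised Mc5r, a receptor for melanocortin peptides that signals through cyclic AMP, in WAT and lowered it in SM. The fed WAT arrays read 5.25, 5.49, 6.05, 5.11 and 5.11, and the fasted WAT arrays 8.13, 8.31, 8.62, 9.26 and 8.34. In SM, the fed arrays read 8.77, 8.80, 8.80, 8.58 and 8.37, and the fasted arrays 7.44, 7.58, 7.82 and 7.29. The groups did not overlap in either tissue, and fasted fat came to lie at about the values of fed muscle. Mc5r changed by 3.13 in WAT (standard error 0.18, adjusted p = 5.74e-13) and by −1.13 in SM (standard error 0.19, adjusted p = 5.17e-05), a difference of 4.26 (standard error 0.26, adjusted p = 7.30e-12). It had the widest gap of the 59 genes that rose in WAT and fell in SM, in which the median change was 0.64 in WAT and −0.53 in SM. In 40 of the 59 the change in WAT was the larger, and in 45 of the 59 fed and fasted arrays did not overlap in either tissue, against 8.64% of all genes (21.6% in WAT and 22.9% in SM taken singly). Mc5r alone of the 59 changed by at least 2-fold in both tissues, and 8 of the 59 changed by at least 1.5-fold in both.

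Tead1 and Tead4, transcription factors of the TEAD family that bind DNA with the Hippo pathway's Yap and Taz, both rose in fat and fell in muscle. The WAT arrays of Tead1 read 9.27, 9.47, 9.52, 9.38 and 9.49 in fed and 10.75, 10.67, 10.79, 11.12 and 10.70 in fasted mice. Its SM arrays read 11.13, 11.05, 11.04, 11.00 and 10.99 in fed and 10.56, 10.42, 10.46 and 10.51 in fasted mice. All fasted WAT arrays thus lay above all fed WAT arrays and above all fasted SM arrays, whereas in the fed state muscle had been the higher. The difference for Tead1 was 1.93 (1.38 in WAT, −0.55 in SM, standard error of the difference 0.11, adjusted p = 4.25e-12), and a second probe set of the gene gave 2.03 (1.40 and −0.64). Tead4 changed by 0.85 in WAT and by −0.64 in SM (difference 1.48, standard error 0.16, adjusted p = 1.46e-07). The paralogs Tead2 (0.46 in WAT, 0.15 in SM) and Tead3 (0.10 and −0.11) had no called difference (adjusted p = 0.259 and 0.170), nor had Yap1 (difference −0.19, adjusted p = 0.241), and these 3 were looked at after the values of Tead1 were seen. Mamstr, a coactivator of the muscle transcription factor MEF2, also rose in WAT (0.83) and fell in SM (−0.68), with a difference of 1.51 (standard error 0.19, adjusted p = 2.03e-06).

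Vegfa, the main growth factor of blood vessels, and Cxcl12, a chemokine that draws progenitor and immune cells, moved with them. The WAT arrays of Vegfa read 10.07, 10.11, 10.30, 10.11 and 10.36 in fed and 10.85, 10.53, 10.96, 11.08 and 10.54 in fasted mice. The SM arrays read 10.29, 10.36, 10.23, 10.39 and 10.28 in fed and 9.59, 9.34, 9.41 and 9.33 in fasted mice. The tissues had overlapping values in fed mice and were apart on every array of fasted mice. Vegfa changed by 0.60 in WAT and by −0.90 in SM (difference 1.49, standard error 0.13, adjusted p = 2.65e-09), and Cxcl12 by 0.74 and −0.68 (difference 1.42, standard error 0.14, adjusted p = 4.73e-08). The related growth factor Vegfd, which acts on lymphatic vessels, went the other way. Its WAT arrays read 8.24 to 8.70 in fed and 7.55 to 8.40 in fasted mice, with 1 fasted array inside the fed range, and its SM arrays 6.11 to 6.65 in fed and 7.67 to 8.08 in fasted mice. It changed by −0.49 in WAT (adjusted p = 0.00939) and by 1.51 in SM (adjusted p = 1.67e-08), a difference of −2.0 (standard error 0.21, adjusted p = 7.73e-08). Of the 36 measured genes of blood vessel growth, 10 had a more positive and 6 a more negative change in WAT (44.4%, against 15.1% of all genes), with a median difference of −0.01 over the list and 0.00 over all genes. Without the first fasted SM array, 3 were more negative in place of 6. The receptor of Vegfa on endothelial cells, Kdr, named after its value was seen, fell in SM only (−0.82, against 0.00 in WAT, adjusted p of the difference 2.25e-06), and the endothelial marker mean was 8.13 to 8.50 in fed SM and 8.09 to 8.40 in fasted SM (8 genes, Kdr among them, of which 1 fell in SM).

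Among regulators of metabolism, Ppargc1b, a coactivator that drives mitochondrial genes with nuclear receptors, rose in WAT and fell in SM. Its arrays read 5.88 to 6.69 in fed and 6.32 to 7.20 in fasted WAT, which overlap, and 7.45 to 7.75 in fed and 6.28 to 6.92 in fasted SM, which do not. The changes were 0.62 (adjusted p = 0.00231) and −0.87 (adjusted p = 1.58e-04), with a difference of 1.5 (standard error 0.22, adjusted p = 1.64e-05). Its relative Ppargc1a lay just outside the class. It fell in SM by 0.66 (adjusted p = 0.00976), its change in WAT of 0.39 was not called (adjusted p = 0.108), and the difference of 1.06 was (standard error 0.26, adjusted p = 0.00417). Without the first or the second fasted WAT array the change in WAT was called (0.52 and 0.53). A second probe set of Ppargc1a gave 0.23 in WAT, not called (adjusted p = 0.321 by limma), and −0.89 in SM (difference 1.12). Just inside was Fzd4, a Wnt receptor, named after its value was seen, with −0.66 in WAT and 0.40 in SM (adjusted p = 0.0491 in SM), a call that was lost in 18 of 31 other fits (0.28, adjusted p = 0.171, with the slow fibre marker mean, and 0.62 with the adipocyte marker mean, where it held). Ppm1k, the phosphatase that turns on the branched-chain ketoacid dehydrogenase, changed by 0.52 in WAT and by −0.63 in SM (difference 1.15, standard error 0.20, adjusted p = 1.11e-04). Insig2, which holds the sterol sensor in the endoplasmic reticulum, changed by 0.69 and −0.44 (difference 1.13, adjusted p = 8.16e-08), and Ak4, an adenylate kinase of mitochondria, by 1.37 and −0.47 (difference 1.84, standard error 0.18, adjusted p = 4.12e-08). The last 2 were named after their values were seen. The SM arrays of Ak4 overlapped (7.15 to 8.11 in fed, 6.90 to 7.19 in fasted mice), and its change in SM was not called with the adipocyte marker mean as a covariate (−0.30, adjusted p = 0.165) or without the third fed SM array (−0.31, adjusted p = 0.0381, under 1.3-fold).

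The rule named 8 further genes of this class. Slc4a4, a sodium bicarbonate cotransporter, rose by 1.15 in WAT from 8.16 to 8.53 in fed to 9.21 to 10.00 in fasted mice, and fell by 0.44 in SM, where the fed arrays read 8.83 to 9.34 and the fasted arrays 8.44 to 8.75. With the slow fibre marker mean as a covariate, the fall in SM was no longer called (−0.39, adjusted p = 0.059), nor was it without the third fasted SM array (−0.37, under 1.3-fold), and it was −0.68 with the first fasted SM array left out in place of the fifth. Sema6c, a transmembrane semaphorin, fell by 1.16 in SM (9.34 to 9.51 in fed, 8.18 to 8.36 in fasted mice), while its rise of 0.41 in WAT went from 4.50 to 4.63 to 4.82 to 5.20, near the median of all values (5.02), below which a gene is called dim here, and was 0.35 without the third fasted WAT array, under 1.3-fold. Prss55, a serine protease, was likewise dim in WAT (0.91, and −1.27 in SM). The others were Stmn2, a regulator of microtubules (1.28 and −0.53), Gdpd1, a lysophospholipase D (1.08 and −0.48), Osbpl6, an oxysterol-binding protein (1.02 and −0.54), and Ppm1l, a phosphatase of stress kinases (0.96 and −0.57). The fall of Gdpd1 in SM had an adjusted p of 0.0517 with the adipocyte marker mean as a covariate, and that of Stmn2 was not called without fasted SM array 2 or 3 or fed SM array 2 (adjusted p = 0.0528, 0.0976 and 0.0509). Postn, a matrix protein, rose by 0.95 in WAT, but its fall of 0.52 in SM was −0.19 (adjusted p = 0.417) with that covariate and −0.24 (adjusted p = 0.546) over all 30 arrays, and lost its call in 12 of 31 other fits, those without fed SM array 1, 2 or 3 or fasted SM array 2, 3 or 4 among them. Of the 59 genes, 6 were dim in WAT and 5 in SM.

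Gadd45a, a small protein induced by stress that halts the cell cycle and is tied to muscle wasting, led the 46 genes that fell in WAT and rose in SM. In WAT the fed arrays read 5.84, 5.64, 5.59, 5.81 and 6.02 and the fasted arrays 5.08, 5.03, 5.33, 4.83 and 5.23. In SM the fed arrays read 7.13, 6.81, 7.28, 7.06 and 7.26 and the fasted arrays 8.58, 8.69, 8.90 and 9.22. Neither tissue showed an overlap. The change was −0.68 in WAT (standard error 0.11, adjusted p = 3.78e-05) and 1.74 in SM (standard error 0.12, adjusted p = 1.99e-11), a difference of −2.42 (standard error 0.17, adjusted p = 5.77e-11). The paralogs behaved in other ways: Gadd45b rose in WAT only (1.56, against 0.13 in SM, adjusted p of the difference 1.21e-04), and Gadd45g, named after its value was seen, rose in both (1.34 and 1.05) with no called difference (adjusted p = 0.599). In the class of 46 the median change was −0.50 in WAT and 0.66 in SM, and in 31 the change in SM was the larger. Fed and fasted arrays did not overlap in either tissue in 32 of the 46, against 8.64% of all genes. Both opposite classes were chosen by calls on these same arrays, so many members without overlap follow from the choice. None of the 46 changed by 2-fold in both tissues, and 10 changed by at least 1.5-fold in both.

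Osgin1, a growth inhibitor induced by oxidative stress, read 6.31, 6.76, 6.44, 6.51 and 6.21 in fed and 5.39, 5.49, 5.66, 5.37 and 5.89 in fasted WAT. In SM it read 6.71, 6.77, 6.43, 6.79 and 6.60 in fed and 8.13, 7.94, 7.89 and 7.88 in fasted mice. Fed fat and fed muscle had overlapping values, and fasting moved them apart by −2.18 (standard error 0.18, adjusted p = 1.55e-09). Pik3r1, the regulatory subunit of the phosphoinositide kinase downstream of the insulin receptor, was higher in WAT than in SM in fed mice. Its WAT arrays read 10.77, 10.94, 10.94, 10.80 and 10.62 in fed and 9.94, 10.15, 10.12, 9.72 and 10.34 in fasted mice, and its SM arrays 9.26, 9.14, 9.26, 8.82 and 8.85 in fed and 9.56, 9.82, 10.15 and 9.72 in fasted mice. It fell by 0.76 in WAT and rose by 0.75 in SM (difference −1.5, standard error 0.16, adjusted p = 8.78e-08), and the tissues, apart in fed mice, had overlapping values in fasted mice. Phlda3, a p53 target that blocks Akt at the membrane, changed by −0.91 and 0.50 (difference −1.41, standard error 0.19, adjusted p = 3.49e-06).

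Several genes of amino acid and lipid handling were in the same class. Slc7a2, a transporter of arginine and other cationic amino acids, rose in SM from 9.13 to 9.44 in fed to 10.72 to 11.10 in fasted mice. In WAT its fed arrays read 5.46 to 6.56 and its fasted arrays 4.82 to 6.39, which overlap, for changes of 1.59 in SM and −0.58 in WAT (difference −2.17, standard error 0.29, adjusted p = 3.73e-06). The fall in WAT lost its call in 9 of 31 other fits (−0.58 to −0.43), among them those without fed WAT array 1 or 3 or fasted WAT array 1, 3 or 4. Cth, the cystathionine lyase that makes cysteine, changed by −1.04 in WAT and by 0.69 in SM (difference −1.73, standard error 0.23, adjusted p = 3.00e-06). Mid1ip1, which activates acetyl-CoA carboxylase, changed by −0.98 and 0.86 (difference −1.84, standard error 0.16, adjusted p = 5.18e-09). Vldlr, a receptor for triglyceride-rich lipoproteins, changed by −0.73 and 0.50, Plin3, a coat protein of lipid droplets, by −0.43 and 0.72, and Gpat3, a glycerophosphate acyltransferase, by −0.43 and 0.48. The SM change of Gpat3 was not called over all 30 arrays (adjusted p = 0.0878) or with the slow fibre marker mean as a covariate (adjusted p = 0.177), and lost its call in 12 of 31 other fits, as its change in WAT did in 14. The fall of Plin3 in WAT was −0.36 without the first fasted WAT array, under 1.3-fold. Acss1, the acetyl-CoA synthetase of mitochondria (−0.47 and 1.39), Pank1, the kinase at the start of coenzyme A synthesis (−0.45 and 1.34), and Coasy, which completes it (−0.53 and 0.66), were also members, and were named after their values were seen (adjusted p of the difference 4.72e-09, 7.37e-09 and 1.33e-08). The fall of Acss1 in WAT was −0.37 without the fourth fed WAT array. Acss2, the acetyl-CoA synthetase of the cytosol, fell in WAT only (−1.55, against −0.13 in SM, adjusted p of the difference 9.44e-06), and was likewise named after its value was seen.

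The rest of the named genes of this class have varied roles. Tmem100, a membrane protein of endothelium and nerve (−0.98 in WAT, 1.02 in SM), Zfand2a, a stress-induced partner of the proteasome (−0.66 and 0.98), Tubb6, a beta-tubulin (−0.63 and 0.94), Twf2, which binds actin monomers (−0.40 and 1.12), and Fkbpl, an immunophilin-like protein (−0.41 and 1.02), had differences from −2.0 to −1.43. Pole, the catalytic subunit of a DNA polymerase (−0.52 and 1.22), was dim in WAT, and Kcnk1, a potassium channel (−0.77 and 1.25), was dim in both tissues. Fed WAT array 3 of Kcnk1 read 5.63 and the other fed WAT arrays 3.65, 3.86, 4.52 and 3.76, and without that array the change in WAT was −0.43. The fall in WAT of Twf2 was under 1.3-fold without fasted WAT array 3 or 4 or fed WAT array 2 (−0.38 to −0.37), and that of Fkbpl without fasted WAT array 1 or 3 (−0.38). Edem1, which sends misfolded glycoproteins to degradation, changed by −0.54 and 0.68 (difference −1.22, standard error 0.14, adjusted p = 3.27e-07), and Psma1, a subunit of the proteasome's core, by −0.45 and 0.51 (difference −0.95, standard error 0.09, adjusted p = 1.33e-08). Rrm2, a subunit of ribonucleotide reductase, changed by −0.48 and 0.55, with overlapping arrays in both tissues, and was dim in WAT. The growth factor Fgf1 changed by −0.41 and 0.45, its arrays overlapped in both tissues as well, and its change in SM was not called with the slow fibre marker mean as a covariate (adjusted p = 0.113). Its change in SM and that in WAT each lost the call in 6 of 31 other fits.

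**Figure D3:**
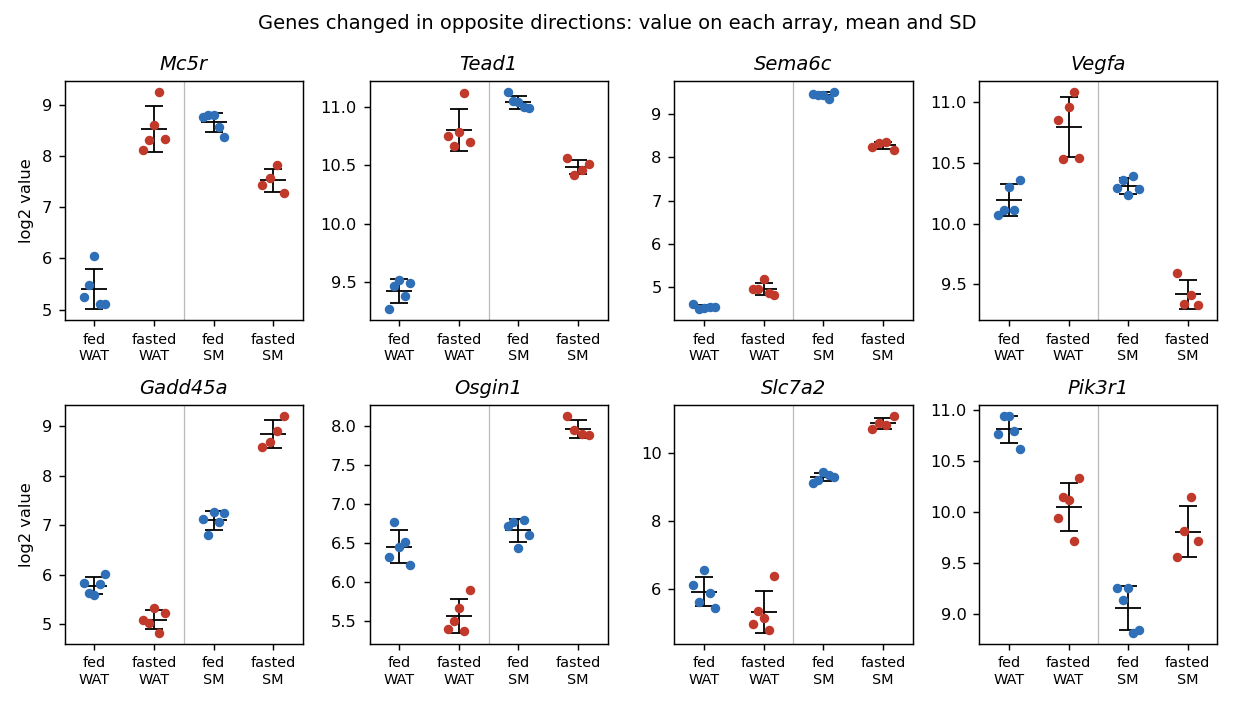
Log2 value on each array (y axis) of 8 genes with opposite changes, for fed (blue) and fasted (red) WAT and SM (x axis), with the group mean and SD in black. In the upper row the red points lie above the blue points in WAT and below them in SM, and the lower row shows the reverse, with overlap in WAT for Slc7a2.

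Promoter sequences are shown for 2 genes of each opposite class, the largest differences for which a usable entry was on hand, as the stretch of 250 bases before the start of transcription (RefSeq, GRCm38.p6, 5′ to 3′ on the gene's strand). They are Ak4 (chr4:101419039-101419288, plus strand) and Slc4a4 (chr5:88887010-88887259, plus strand), which rose in WAT and fell in SM, and Gadd45a (chr6:67037408-67037657, minus strand) and Osgin1 (chr8:119436897-119437146, plus strand), which did the reverse. Ak4 has 4 entries and Slc4a4 2, and the first of each is given. The stretches of Ak4, Slc4a4 and Osgin1 lie inside the gene's RefSeq span, which begins at base 101416478, 88793858 and 119425882. Each thus precedes an inner transcript start, and the bases before the gene's first start were not searched. Capitals mark matches, on either strand, to the FoxO core GTAAACA, the TEAD motif CATTCC, the E-box CACGTG, the cyclic AMP response core TGACG, the AP-1 motif TGANTCA, the antioxidant response core TGACNNNGC or the amino acid response core TGATGNAA. TGACG and TGACNNNGC can overlap.
Ak4: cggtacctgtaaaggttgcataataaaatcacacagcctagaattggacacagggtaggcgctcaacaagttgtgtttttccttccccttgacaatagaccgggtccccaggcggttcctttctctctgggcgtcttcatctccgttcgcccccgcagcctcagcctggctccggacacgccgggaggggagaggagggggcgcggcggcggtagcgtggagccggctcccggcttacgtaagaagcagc
Slc4a4: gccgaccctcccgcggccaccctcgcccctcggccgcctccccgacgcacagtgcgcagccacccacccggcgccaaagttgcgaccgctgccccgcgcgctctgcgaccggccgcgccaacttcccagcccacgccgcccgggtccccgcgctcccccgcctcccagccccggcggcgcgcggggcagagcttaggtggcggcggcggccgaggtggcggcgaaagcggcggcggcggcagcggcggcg
Gadd45a: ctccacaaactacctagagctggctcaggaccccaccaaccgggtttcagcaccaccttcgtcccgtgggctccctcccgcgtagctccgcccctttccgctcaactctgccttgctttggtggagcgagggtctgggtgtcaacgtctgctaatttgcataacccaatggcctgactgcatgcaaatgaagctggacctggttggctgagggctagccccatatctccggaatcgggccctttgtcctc
Osgin1: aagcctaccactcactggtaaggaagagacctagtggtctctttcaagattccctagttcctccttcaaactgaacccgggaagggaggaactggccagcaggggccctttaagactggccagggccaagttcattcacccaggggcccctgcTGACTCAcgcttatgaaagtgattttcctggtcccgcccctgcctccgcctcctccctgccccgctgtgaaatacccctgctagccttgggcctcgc
The only match in the 4 sequences was that to the AP-1 motif in Osgin1, 97 to 91 bases before the start of the transcript used. Promoters were on hand for 14723 of the 18781 genes, of which 874 (5.9%) held this motif. Among the genes that fell in WAT and rose in SM, 1 of 36 held it (2.8%). The TEAD motif was in 0 of 44 promoters of the genes that rose in WAT and fell in SM (0.0%), in 6 of 36 of those that fell in WAT and rose in SM (16.7%) and in 1682 of all promoters (11.4%). No test was made on these shares.

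The genes that rose in WAT only included proteins of lipid export, hormone action and membrane lipid synthesis. Abcg1, which exports cholesterol to high-density lipoprotein, read 7.86 to 8.07 in fed and 9.87 to 10.93 in fasted WAT, and 5.41 to 5.74 in fed and 5.84 to 6.20 in fasted SM. It rose by 2.45 in WAT, against 0.36 in SM, which is under 1.3-fold (difference 2.09, standard error 0.18, adjusted p = 2.89e-09). Its SM arrays did not overlap either. The change in SM was called, and the gene left its class, over all 30 arrays (0.74, adjusted p = 0.0257), without the second fasted SM (0.40) or fed SM array (0.39), with array weights (0.44) and with the first fasted SM array left out in place of the fifth (0.78). Crls1, the cardiolipin synthase of the mitochondrial inner membrane, read 7.34 to 7.53 in fed and 8.91 to 9.61 in fasted WAT, while its SM arrays overlapped (6.89 to 7.17 in fed, 6.67 to 6.91 in fasted mice). It rose by 1.71 in WAT, against −0.13 in SM (difference 1.84, standard error 0.13, adjusted p = 7.11e-11). Sgk1, a kinase induced by serum and glucocorticoids, rose in WAT by 1.5 and changed by −0.37 in SM, just under the 1.3-fold limit and past it, and called, in 5 of 31 other fits, which leave out fed SM array 1 or fasted SM array 3 or 4, use cyclic loess or use the adipocyte covariate (−0.42 to −0.38; difference 1.87, standard error 0.14, adjusted p = 1.95e-10). Pdk2, a kinase that shuts off pyruvate dehydrogenase, rose by 1.5 in WAT, against −0.11 in SM (difference 1.62, standard error 0.08, adjusted p = 6.32e-13).

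Others in this class were Gprin3, a partner of G proteins (2.54 in WAT, −0.21 in SM), Rbp7, a retinol-binding protein (2.43 and 0.21), Mycl, a Myc family factor (1.74 and −0.20), Pcsk5, a proprotein convertase (1.70 and −0.07), and Niban2 (1.76 and 0.12). Grb10, an adaptor that restrains insulin receptor signalling, changed by 0.95 and −0.29 (difference 1.24, standard error 0.16, adjusted p = 2.55e-06), and Stim1, the calcium sensor of the endoplasmic reticulum, by 0.88 and −0.21 (difference 1.09, adjusted p = 7.19e-07). Among genes dim in muscle, Cyp2b10, a cytochrome P450 (2.46 in WAT, −0.09 in SM), Acot4, a peroxisomal thioesterase (1.97 and 0.33), and the noncoding RNA Lncenc1 (1.89 and 0.22) had the largest differences. Of the 560 genes, 153 were dim in SM, and in 365 the 95% confidence interval of the change in SM lay within 1.3-fold.

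In the opposite direction, Asb12, a protein of the SOCS box family, fell in WAT only. Its WAT arrays read 8.07, 8.40, 7.76, 7.66 and 8.21 in fed and 3.36, 3.58, 3.78, 3.15 and 3.59 in fasted mice, at the dim end of the arrays. Its SM arrays read 11.07, 11.05, 10.96, 10.99 and 10.85 in fed and 10.85, 10.91, 10.82 and 10.72 in fasted mice. The ranges overlapped in SM and lay far apart in WAT. The change was −4.53 in WAT and −0.16 in SM (difference −4.37, standard error 0.19, adjusted p = 9.77e-15), the largest difference by size among the 7 classes. Gpt, the alanine aminotransferase, read 8.08 to 8.51 in fed and 5.63 to 6.12 in fasted WAT, and 6.02 to 6.50 in fed and 6.06 to 6.25 in fasted SM (−2.52 and −0.15, difference −2.36, standard error 0.14, adjusted p = 7.30e-12). Igfals, which stabilises circulating IGF complexes (−2.27 and −0.18), Matn2, a matrix protein (−2.20 and −0.35), Rasd1, a Ras-related protein (−2.05 and −0.30), Olfm1, an olfactomedin (−1.59 and 0.25), Lbp, which binds bacterial lipopolysaccharide (−1.50 and 0.27), and Slc38a3, a glutamine transporter that was dim in WAT (−1.45 and 0.26), followed. Dim in muscle were Mettl7b, a methyltransferase (−1.46 in WAT, 0.12 in SM), Oxtr, the oxytocin receptor (−1.56 and −0.03), and Odf3l1 (−1.59 and −0.08), of which Mettl7b and Odf3l1 were dim in WAT too. The change of Matn2 in SM was called without the first fasted SM array (−0.57, adjusted p = 0.00592), with that array left out in place of the fifth and with the replicate number within tissue as a block. The change of Olfm1 in SM was called with the adipocyte marker mean as a covariate (0.38, adjusted p = 0.023).

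Slc2a4, the glucose transporter that insulin brings to the surface of both tissues, fell by 1.15 in WAT and changed by 0.07 in SM (difference −1.22, standard error 0.12, adjusted p = 3.72e-08). Of 19 measured genes of glucose uptake and glycolysis, 2 had a more positive and 8 a more negative change in WAT (52.6%, against 15.1% of all genes). All 8 fell in WAT only, among them the triose phosphate isomerase Tpi1 (−1.45 in WAT, −0.30 in SM, difference −1.15, adjusted p = 6.61e-07). Of 20 genes of cholesterol synthesis, 9 had a more negative and 0 a more positive change in WAT by limma (45.0%; median difference −0.44), and 0 a more positive one at an unadjusted p under 0.05 or with ordinary variances. Insig1, which retains the sterol sensor when sterols are ample, changed by −1.30 in WAT and 0.19 in SM (difference −1.49, standard error 0.14, adjusted p = 2.14e-08), the opposite in WAT of its paralog Insig2. Lss, the lanosterol synthase, changed by −1.15 and 0.16 (difference −1.31, adjusted p = 3.16e-07), and Idi1, an isomerase, fell in both (−1.59 and −0.52). Of 20 genes of fatty acid synthesis, 7 had a more negative and 2 a more positive change in WAT (45.0%), with Acly, the citrate lyase, at −1.94 and −0.31 (difference −1.63, standard error 0.30, adjusted p = 2.29e-04). In triglyceride synthesis and lipid uptake, 6 of 26 were more negative and 4 more positive (38.5%). Dgat2, which makes triglyceride, changed by −1.65 in WAT and −0.19 in SM (difference −1.47, standard error 0.29, adjusted p = 4.85e-04).

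The genes that rose in SM only included members of the lists of fatty acid oxidation, of antioxidants and metallothioneins, and of atrophy ligases and FoxO targets. WAT also raised members of these lists (3 of 23, 4 of 33 and 14 of 28, against 7, 10 and 21 in SM). Over all genes, 7.99% rose in WAT and 7.80% in SM. Acot2, a thioesterase of the mitochondrial matrix, read 9.62, 9.79, 9.65, 10.03 and 9.73 in fed and 11.47, 11.76, 11.63 and 11.62 in fasted SM. In WAT it read 9.57 to 9.82 in fed and 9.47 to 9.78 in fasted mice. The tissues had like values in fed mice, and the fasted muscles lay above every other array (1.86 in SM, −0.09 in WAT, difference −1.95, standard error 0.15, adjusted p = 9.59e-10). Acot1, its cytosolic relative, changed by 1.25 in SM and −0.11 in WAT, where it was dim, and Cpt1a, which admits fatty acids to mitochondria, by 0.67 and −0.25 (difference −0.92, standard error 0.11, adjusted p = 1.54e-06). Acot1 and Acot2 are close paralogs, and probes that they share could mix their signals. Of 23 genes of fatty acid oxidation, 7 had a more negative change in WAT and 0 a more positive one by limma (30.4%), with 1 more positive at an unadjusted p under 0.05 and 0 with ordinary variances. Among the genes of pyruvate dehydrogenase control, Pdp2, a phosphatase that turns the enzyme on, rose in SM only (1.38, against −0.03 in WAT, difference −1.41, standard error 0.16, adjusted p = 5.08e-07), and Pdp1, named after its value was seen, fell in SM only (−0.72, against 0.32, adjusted p of the difference 5.45e-08). The kinase Pdk4 rose in both tissues, by 2.67 in WAT (8.85 to 9.22 in fed, 11.55 to 11.85 in fasted mice) and by 0.90 in SM (11.50 to 11.88 and 12.45 to 12.73), with a difference of 1.77 (standard error 0.17, adjusted p = 2.54e-08).

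Srxn1, the sulfiredoxin that repairs oxidised peroxiredoxins, read 7.43 to 7.65 in fed and 9.18 to 9.46 in fasted SM, while its WAT arrays overlapped (6.96 to 7.22 and 6.85 to 7.13). The changes were 1.70 and −0.10 (difference −1.80, standard error 0.11, adjusted p = 4.23e-12). Gclm, the modifier subunit of the enzyme that starts glutathione synthesis, changed by 1.07 in SM and −0.05 in WAT (difference −1.12, standard error 0.10, adjusted p = 4.12e-09), and the metallothionein Mt2 by 1.63 and 0.20 (difference −1.43, standard error 0.28, adjusted p = 4.81e-04). Of 33 antioxidants and metallothioneins, 11 had a more negative and 2 a more positive change in WAT (39.4%), and 7 rose in SM only. Also in this class were Cry2, a repressor of the circadian clock (7.59 to 7.89 in fed and 8.72 to 9.13 in fasted SM; 8.25 to 8.64 and 7.90 to 8.18 in WAT; difference −1.61, standard error 0.14, adjusted p = 2.89e-09), Tnfrsf12a, the receptor of the cytokine TWEAK (1.51 in SM, −0.25 in WAT), Rassf4, a Ras association protein (1.88 and 0.32), and Ccn1, a matricellular protein (1.39 and −0.08). The change of Cry2 in WAT, −0.38 and just short of the limit, was called in 5 of 31 other fits, those without fed WAT array 2 or 4 or fasted WAT array 2 or 3 and that with cyclic loess.

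Some of the largest rises in SM only rested on variable arrays. Cytl1, a cytokine-like secreted protein (2.07 in SM, −0.31 in WAT), had an adjusted p of 0.00985 for the difference, which was 0.0502 with the adipocyte marker mean as a covariate, and its change in WAT was −0.90 (adjusted p = 0.036) without the fifth fasted WAT array. The chemokine Cxcl13 rose by 2.00 in SM, while its fed WAT arrays ran from 6.67 to 10.91; the adjusted p of its difference was 0.0224, and 0.0897 with the adipocyte and 0.0715 with the slow fibre marker mean as a covariate. Csrp3, a LIM protein of the Z-disc that slow fibres hold in larger amounts, rose by 2.68 in SM and was dim in WAT (difference −2.45, standard error 0.71, adjusted p = 0.016; −1.93, adjusted p = 0.0596, with the first fasted SM array left out in place of the fifth; −1.82 with the slow fibre and −3.57 with the adipocyte marker mean as a covariate). Ankrd2, another Z-disc protein that responds to stretch, rose by 1.43 in SM and was dim in WAT, and its difference of −1.61 (adjusted p = 1.21e-04) was −1.39 with the slow fibre markers. Eda2r, a receptor of ectodysplasin (2.05 in SM, −0.11 in WAT), and Odf3l2 (2.38 and 0.03) were dim in WAT as well. Of the 520 genes, 80 were dim in WAT, and in 376 the 95% confidence interval of the change in WAT lay within 1.3-fold.

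The cyclic AMP response core TGACG was in 133 of 432 promoters of the genes that rose in SM only (30.8%), against 3204 of 14723 (21.8%) of all promoters and 94 of 417 (22.5%) of those of the genes that rose in WAT only. The median GC content of these promoters was 60.4% in the genes that rose in SM only, 60.8% in those that rose in WAT only and 56.8% in all. The shares are a description, compared after they were seen and without a test. The 2 named genes of the class with the largest differences that hold the core are shown as an example (250 bases before the start, RefSeq, GRCm38.p6), with the matches to any of the 7 motifs in capitals: Acot2 (chr12:83987611-83987860, plus strand), with the core 117 to 113 bases before the start, and Srxn1 (chr2:152105274-152105523, plus strand), with the core 85 to 81 bases before the start and AP-1 motifs at 102 to 96 and at 45 to 39 bases.
Acot2: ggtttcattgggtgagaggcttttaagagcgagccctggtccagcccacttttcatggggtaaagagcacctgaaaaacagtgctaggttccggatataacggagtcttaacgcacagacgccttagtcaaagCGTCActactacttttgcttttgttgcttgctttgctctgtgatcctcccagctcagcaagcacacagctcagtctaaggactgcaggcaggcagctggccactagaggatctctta
Srxn1: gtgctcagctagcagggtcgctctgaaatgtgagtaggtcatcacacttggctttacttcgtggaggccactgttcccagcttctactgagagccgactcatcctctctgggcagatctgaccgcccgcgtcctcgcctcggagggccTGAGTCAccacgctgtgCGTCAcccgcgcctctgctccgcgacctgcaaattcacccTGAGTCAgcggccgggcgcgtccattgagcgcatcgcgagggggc

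Of 37 measured genes in the list of proteasome subunits, 15 had a more negative and 0 a more positive change in WAT by limma (40.5%, median difference −0.33), with 0 more positive at an unadjusted p under 0.05 or with ordinary variances. In SM 10 rose and 1 fell, and in WAT 4 fell (7.80%, 5.78% and 7.75% of all genes). Psmb8, a subunit of the immunoproteasome held in the list of interferon-stimulated genes, went the other way, falling in SM only (−0.70, against −0.19 in WAT, difference 0.51, adjusted p = 0.0282). Its difference was 0.12 (adjusted p = 0.887) over all 30 arrays and lost its call in 12 of 36 alternatives. Of the 15, 7 rose in SM only, 3 fell in WAT only and 1, Psma1, did both. Psmc4, an ATPase of the regulatory particle, rose by 0.40 in SM, with −0.32 in WAT (difference −0.72, standard error 0.06, adjusted p = 7.18e-09; 0.37 in SM over all 30 arrays or with the adipocyte marker mean, under 1.3-fold), and Psmd14, the deubiquitinase of the lid, fell by 0.51 in WAT, with 0.26 in SM (difference −0.77, standard error 0.11, adjusted p = 7.33e-06). Of 28 atrophy ligases and FoxO targets, 12 had a more negative and 4 a more positive change in WAT (57.1%). In this list 21 rose in SM and 14 in WAT (7.80% and 7.99% of all genes). Trim63, the ubiquitin ligase MuRF1 of the sarcomere, rose in SM only (1.90) and was dim in WAT, and Depp1, a FoxO target, rose in both, by 2.89 in WAT and 4.61 in SM (difference −1.72, standard error 0.24, adjusted p = 7.50e-06). The ligase Fbxo32, named after its value was seen, rose in both (0.78 in WAT, 1.23 in SM) with no called difference (adjusted p = 0.0533). Eif4ebp1, which blocks the start of translation when mTORC1 is off, rose in SM only (1.26, against −0.01, difference −1.27, standard error 0.10, adjusted p = 1.30e-09).

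Of 30 glucocorticoid targets, 24 rose in SM and 16 in WAT (7.80% and 7.99% of all genes). The change in WAT was more negative in 12 and more positive in 5 of the 30 targets (56.7%, against 15.1% of all genes). Several of them, Gadd45a, Pik3r1 and Trim63 among others, also stand in the list of FoxO targets. The classic targets Fkbp5 (1.77 in WAT, 2.07 in SM), Per1 (1.33 and 1.41) and Klf9 (0.75 and 0.86), named after their values were seen, rose in both with no called difference (adjusted p = 0.458, 0.827 and 0.528). Of 36 stress kinase phosphatases and immediate early genes, 12 had a more negative and 3 a more positive change in WAT (41.7%), with Ier3, an early response gene, at 1.1 in SM and 0.07 in WAT (difference −1.02, adjusted p = 1.69e-05). In 39 autophagy genes 12 rose in WAT and 13 in SM (7.99% and 7.80% of all genes). Gabarapl1, which lines autophagosomes, rose in both (0.76 in WAT, 1.72 in SM, difference −0.96, standard error 0.11, adjusted p = 7.01e-07). Of 40 lysosomal genes, 6 had a called difference (15%, against 15.1% of all genes), and the protease Ctsl rose in SM only (0.94, against −0.25 in WAT, difference −1.19, standard error 0.10, adjusted p = 4.97e-09).

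Among genes that fell in SM only, Tnfaip2, a protein induced by tumour necrosis factor, read 8.81 to 9.96 in fed and 7.03 to 7.26 in fasted SM, and 6.26 to 6.57 in fed and 6.76 to 6.97 in fasted WAT. Its changes were −2.26 in SM and 0.35 in WAT (difference 2.61, standard error 0.19, adjusted p = 1.36e-10). Rarb, a receptor of retinoic acid, read 8.17 to 8.43 in fed and 6.27 to 6.61 in fasted SM, while its WAT arrays overlapped (5.64 to 6.21 and 5.91 to 6.46). It fell by 1.86, against 0.26 in WAT (difference 2.12, standard error 0.15, adjusted p = 9.27e-11). Mrtfa, a coactivator of serum response factor, fell by 1.75, against 0.07 in WAT (difference 1.82, standard error 0.12, adjusted p = 5.26e-11). Calm2, a calmodulin gene, read 10.24 to 10.42 in fed and 8.63 to 9.00 in fasted SM, and 9.02 to 9.65 and 9.32 to 9.39 in WAT, and both of its other probe sets also had a more positive change in WAT (1.55 and 1.14, against 1.46). Sobp (−1.25 in SM, 0.31 in WAT), Fam78b (−1.05 and 0.25), Rnf122, a ubiquitin ligase (−0.94 and 0.34, and 0.40 in WAT, called, without the fifth fasted WAT array), and the integrin Itga4 (−1.13 and 0.15) followed. The difference of Itga4, which leukocytes carry, was 1.29 (adjusted p = 6.90e-05) but 0.81 (adjusted p = 0.226) when the array with lymphocyte transcripts was kept. Of the 371 genes, 137 were dim in WAT and 50 were dim in SM. Those dim in WAT were led by Nmrk2, a nicotinamide riboside kinase (−3.07), Ky, a protein of the sarcomere (−2.54), and Pdzd7 (−2.30). Ostn, a hormone that muscle secretes, fell by 1.14. In 258 of the 371, the 95% confidence interval of the change in WAT lay within 1.3-fold.

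**Figure D4:**
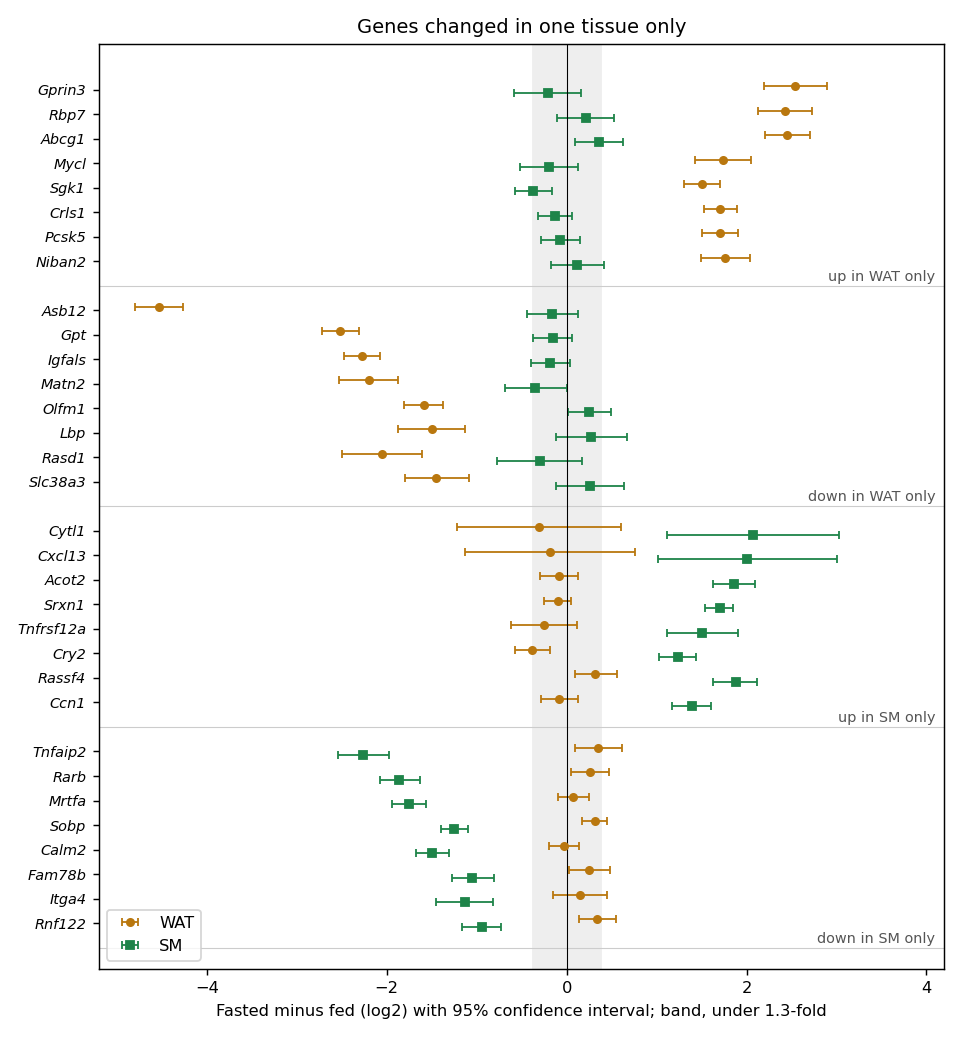
Change in WAT (orange circles) and in SM (green squares), fasted minus fed on the log2 scale with 95% confidence intervals (x axis), of the 8 largest differences in each of the 4 classes of 1 tissue only, among genes not dim in the other tissue (y axis). The grey band marks changes under 1.3-fold, and the points of the tissue without a called change lie in it. The intervals of Cytl1 and Cxcl13 are the widest.

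Where both tissues changed the same way, the change was more positive in WAT in 60 genes and more negative in 106. Zim1, an imprinted zinc finger gene, rose by 4.44 in WAT (4.65 to 5.90 in fed, 9.21 to 10.14 in fasted mice) and by 1.36 in SM (6.55 to 7.23 and 8.05 to 8.16), a difference of 3.09 (standard error 0.26, adjusted p = 2.00e-09). Thbs2, a secreted thrombospondin, rose by 3.03 and 0.64. Tfrc, the transferrin receptor that takes up iron, fell by 0.45 in WAT and by 2.02 in SM (difference 1.56, standard error 0.18, adjusted p = 5.08e-07), and its fall in WAT was not called over all 30 arrays (adjusted p = 0.0971) or without the first fasted WAT array (−0.37). Scd2, a fatty acid desaturase, fell by 3.28 in WAT (10.55 to 11.45 in fed, 7.69 to 8.03 in fasted mice) and by 1.26 in SM (difference −2.02, standard error 0.25, adjusted p = 1.09e-06). Lrrc39 fell by 2.64 and 0.41, the latter not called in 10 of 31 other fits, which gave −0.42 to −0.40, and Trabd2b by 2.60 and 0.77. Slc25a10, the dicarboxylate carrier of mitochondria, fell by 2.66 in WAT and by 0.70 in SM, where the fed arrays ran from 6.39 to 7.98. Its change in SM was −0.29 (adjusted p = 0.16) with the adipocyte marker mean as a covariate. Slc43a1, an amino acid transporter, rose by 0.79 in WAT and by 2.42 in SM (difference −1.64, standard error 0.15, adjusted p = 1.23e-08).

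The shares of called differences over the 36 gene lists ran from 4.76% to 57.1%. In most of the others the directions were mixed. Of 30 genes of amino acid synthesis and Atf4 targets, 6 had a more positive and 10 a more negative change in WAT (53.3%). In the lipid droplet and lipolysis list these were 4 and 5 of 19 (47.4%), with Cidea, a droplet protein, falling in WAT only (−1.08, against 0.25 in SM, where it was dim) and Pnpla3, a lipase of droplets, falling in both (−2.59 and −1.46). In branched-chain amino acid breakdown they were 5 and 5 of 24 (41.7%; the more negative were 3 without the second fed WAT array or fasted SM array 2 or 3, and 8 without the fourth fed WAT or first fasted SM array), among them Hsd17b10, a dehydrogenase of isoleucine breakdown, which rose in WAT only (0.72, against −0.04). In p53 targets and mTORC1 restraint they were 5 and 8 of 33 (39.4%), and in insulin and IGF signalling 6 and 6 of 34 (35.3%), where the Rab GTPase-activating protein Tbc1d1 rose in SM only (1.02, against 0.01). Of 39 cell division genes, 2 had a more positive and 13 a more negative change in WAT (38.5%). In WAT 13 fell (7.75% of all genes), although 15 of the 39 were dim in both tissues. Spag5, a protein of the spindle, rose in SM only (1.11) and was dim in WAT, and Ccne1, a cyclin, fell in WAT only (−0.62, against 0.31). The difference of Pnpla3 (−1.13) was not called with the slow fibre marker mean as a covariate or at a false discovery rate of 1%.

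Calcium handling had 7 more positive and 3 more negative of 30 (33.3%), amino acid transporters 5 and 5 of 30 (33.3%), the pyruvate dehydrogenase and tricarboxylic acid cycle list 3 and 5 of 28 (28.6%), glycogen synthesis and breakdown 1 and 3 of 16 (25.0%), collagens and matrix enzymes 7 and 5 of 49 (24.5%) and the circadian clock 3 and 2 of 21 (23.8%). The heat shock and unfolded protein response list had 1 and 8 of 39 (23.1%), and translation factors 5 and 3 of 41 (19.5%). These shares lie above the 15.1% of all genes, and no test was made of whether a list stands apart. Nearer to it were secreted signals of fat and muscle (21.4%), sarcomere and Z-disc genes (20.8%), autophagy (20.5%), aminoacyl-tRNA synthetases (18.8%), nuclear receptors and PGC-1 coregulators (17.9%) and ketone use and monocarboxylate transport (16.7%). The lowest shares were those of interferon-stimulated genes (13.9%), of the mitochondrial ribosome (11.3%), of the respiratory chain (9.86%) and of cytosolic ribosomal proteins (4.76%). Of the 36 interferon-stimulated genes, 14 fell in WAT and 12 in SM (7.75% and 5.78% of all genes). In the respiratory chain, the cytochrome c oxidase subunits Cox7a1 (−0.99 in WAT, −0.11 in SM) and Cox8b (−1.07 and −0.11), and Ndufb3, a subunit of complex I (−1.05 and −0.23), fell in WAT only. Of the 71 genes of this list, 12 fell in WAT (7.75% of all genes). By limma 0 were called in SM in either direction (13.6% of all genes; 31 of the list at an unadjusted p under 0.05, 0 with ordinary variances).

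**Figure D5:**
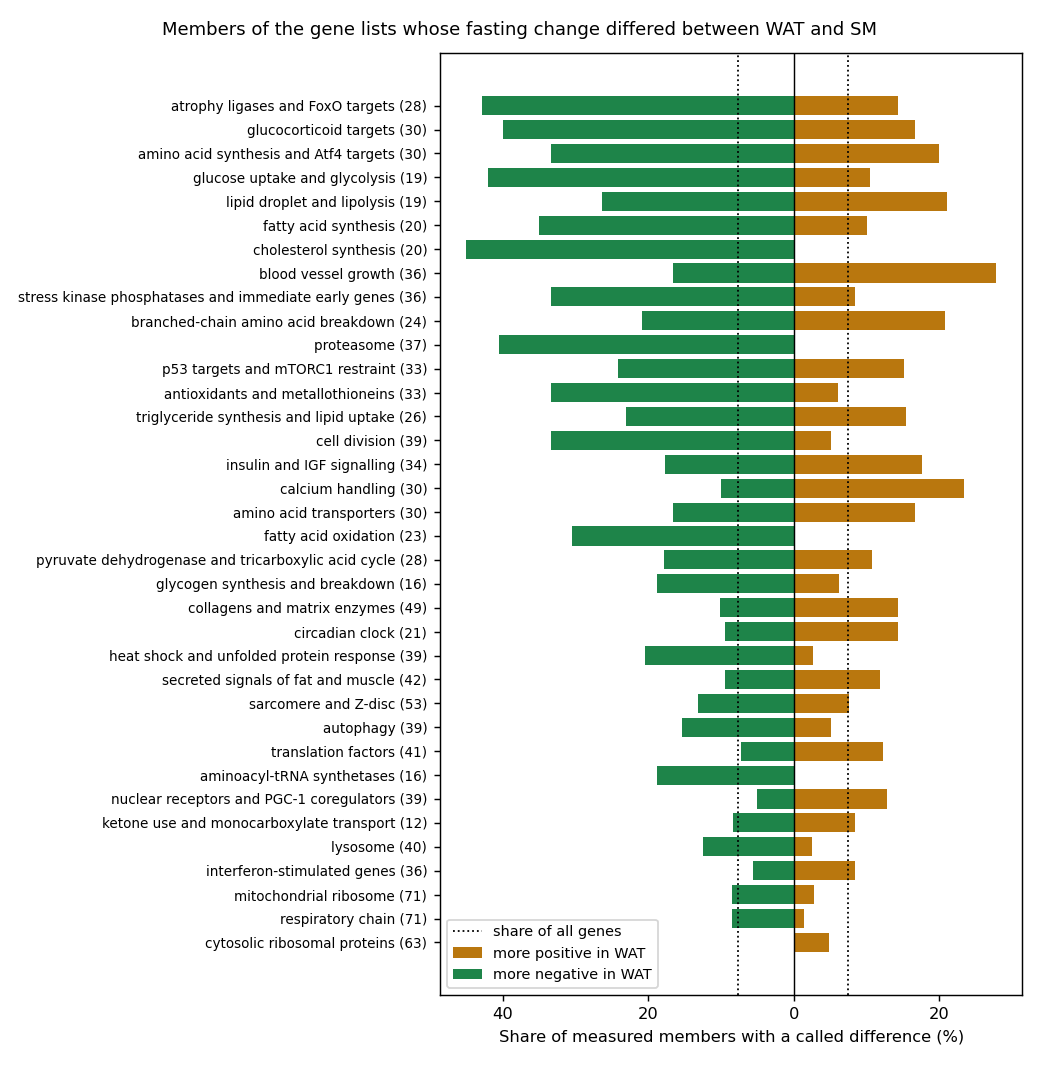
Share of the measured members of each of 36 gene lists (y axis, number of members in brackets) whose fasting change was called more negative in WAT than in SM (green, to the left) or more positive (orange, to the right), in percent (x axis). Dotted lines mark the shares over all genes, 7.70% and 7.37%, and the proteasome, cholesterol synthesis, fatty acid oxidation and aminoacyl-tRNA synthetases have bars to the left only.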

How the data were processed

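The authors amplified and labelled 150 ng of total RNA per sample for Affymetrix Mouse Gene 1.1 ST arrays and deposited log2 values made by RMA in Partek, in 28815 probe sets and 30 arrays. The number of arrays limits the precision, and no depth applies. Group means of 28 arrays were fitted with limma 3.58.1 (R 4.3.3; eBayes, Benjamini-Hochberg over all probe sets), and the change in SM was subtracted from that in WAT. Fed liver 4 and fasted SM 5 were left out; the study's text names fasted SM 1 in place of fasted SM 5, and leaving that one out was run as an alternative. Each gene was represented by 1 probe set, the brightest on average of those that name it alone, by GEO's platform annotation (21153 of 28815 name 1 gene, 1867 several and 5795 none).

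Named were the 12 largest differences of each opposite class without overlap of arrays, the 8 largest of each class of 1 tissue only that were not dim in the other tissue and the 3 largest that were, the 4 largest in each direction among genes changed the same way, up to 3 members of each of 36 gene lists, and list members in an opposite class. Classes, lists and rule were chosen with earlier results of these data known. On simulated data for the difference of changes over 28815 probe sets, 50 of 67 probe sets changed 1.5-fold, 63 of 67 changed 2-fold and 65 of 66 changed 3-fold were recovered, with 14 false calls. Only these probe sets were changed, in WAT alone, with SM left unchanged and independent noise. Far more genes differ on the real arrays, so recovery and false calls there can differ. Alternatives concerned the arrays, the variances, replicate blocks, dim probe sets, probe set annotation, cyclic loess, thresholds, marker covariates in SM and leaving out each array. Replicate numbers were not shown to pair WAT and SM samples. The study's text speaks of 5 fasted and 5 control mice for the 3 tissues, so WAT and SM may share mice. The main fit treated all arrays as independent.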

Additional observations from a re-analysis of the deposited data

Results flagged for a closer look

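Of 96 groups of 4 or 5 arrays checked over 24 genes, 1 held an array far from the others: Tead1 read 11.12 in the fourth fasted WAT array, and 10.79 in the nearest. Chance flags about 1 group in 20.

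The fasting change differed between WAT and SM, by the test of the difference itself, in 2830 genes. Of these, 59 rose in WAT and fell in SM, and 46 fell in WAT and rose in SM.

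The fifth fasted SM array, left out of the reported values, had a lymphocyte marker mean of 7.71, against at most 4.07 on the other SM arrays. It entered only the alternatives over all 30 arrays, over all 30 with array weights, and with the first fasted SM array left out in its place.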

How the results depend on the processing

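Under 36 alternatives, the difference of changes of the 164 named genes kept its direction in all 5904 values. Of these, 5766 kept their side of the threshold and 138 lost their call. The threshold alternatives reuse the reported differences, and 19 alternatives leave out 1 array. The genes were mostly named for large differences on these same arrays, so a kept direction was likely beforehand. Without a minimum fold, 5813 genes were called in WAT and 4944 in SM, 189 rose in WAT and fell in SM, 184 did the reverse and 448 changed the same way unequally. With a minimum of 1.5-fold, 1447 differences were called (729 more positive in WAT, 718 more negative), 1320 genes changed in WAT and 1086 in SM. The classes then held 8 genes that rose in WAT and fell in SM, 10 that did the reverse, 309 up and 249 down in WAT only, 242 up and 192 down in SM only, and 60 changed the same way unequally. At a false discovery rate of 1%, the last class held 109. These follow from the thresholds. Cyclic loess within tissues gave 1264 more positive and 1635 more negative differences in WAT.

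Leaving out each of 19 arrays gave 2659 to 3010 called differences (1273 to 1468 more positive, 1320 to 1598 more negative), 2742 to 3211 changes in WAT and 2360 to 2715 in SM. The classes held 52 to 66 genes up in WAT and down in SM, 39 to 54 the reverse, 505 to 618 up and 459 to 626 down in WAT only, 465 to 577 up and 351 to 391 down in SM only, and 144 to 185 changed the same way.

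Samples of the same number correlated in their deviations from the group means at −0.059 to 0.262, over 0.1 in 4 of 9 pairs. Pairs of unlike number within a diet ran from −0.179 to 0.17. With a replicate block, 2881 differences were called (mouse as a random block), 2873 (mouse as a fixed block) and 2587 (number within tissue). As single genes, Csrp3 (−2.44, adjusted p = 0.0534 by limma, mouse as a fixed block) and Gpat3 (−0.80, adjusted p = 0.0719, number within tissue) lost the call of the difference. Psmb8 also lost it with number within tissue, and no other gene named by the rule and described above did. The cause was not tested.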
